A study of Mus musculus with 2 samples.

Results

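Isl1-positive mesenchyme of the embryonic mouse pancreas was taken as the cells that carried collagen transcripts, few transcripts of other cell types and at least 1 transcript of the transcription factor gene Isl1. Transcripts were counted as unique molecular identifiers (UMIs), each of which stands for 1 captured RNA molecule. The members were chosen by these UMI counts. A cell first had to show 500 genes or more and 1000 UMIs or more, with mitochondrial genes taking no more than 10% of them. It also needed at least 3 UMIs of Col3a1 and Col1a2 together, fewer than 2 of Epcam and Cdh1, fewer than 2 of Upk3b and Lrrn4, fewer than 2 of Pecam1 and Cdh5, fewer than 3 of Lum, and at least 1 of Isl1. The rule kept 866 of the 6944 barcodes, 452 in the knockout-labelled library and 414 in the control library. The 3186 cells that met every other condition but had no Isl1 UMI, 1375 in the knockout-labelled and 1811 in the control library, served for comparison and are called Isl1-zero cells. Because the rule used the levels of Isl1, Col3a1, Col1a2 and its other genes, these are given as descriptions, and so are the genes compared by Isl1 class.

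The study profiled 2 pancreata of C57BL/6 mouse embryos at embryonic day 13.5 by droplet single-cell RNA sequencing: 1 from an embryo titled knockout, called Dpy30∆P in the design, and 1 from an embryo titled control. Dpy30 is a core subunit of the COMPASS complexes, which methylate histone H3 at lysine 4, and the series addresses Trithorax group complexes in pancreas progenitors. Whole pancreata were dissociated with trypsin and live cells were sorted, without a gate for mesenchyme. The Cre driver, the deleted stretch of Dpy30 and any alleles of the control embryo are not stated in the labels. Each condition is 1 library of 1 embryo, so no difference between conditions could be tested, and the intervals below cover counting error alone.

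Isl1 encodes a LIM homeodomain transcription factor. In the pancreas it is known from the mesenchyme around the early bud, where it is needed for the dorsal exocrine pancreas to form, and from endocrine cells, where it serves hormone gene expression. Pancreatic mesenchyme supports the growth of the epithelium through secreted factors, and the mesothelium is the cell layer that covers the organ.

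The knockout-labelled library held 3044 barcodes and the control library 3900, with 22 barcode sequences in common, none of which was an Isl1-positive cell in both. Isl1-positive cells had a median of 7664.5 UMIs in the knockout-labelled library and 6486.5 in the control library, and Isl1-zero cells 7225 and 6003. Levels are UMIs summed over the cells of a class and given as counts per 1000000 UMIs of that class (CPM). Dpy30 stood at 120 CPM (95% interval 109 to 132) in Isl1-positive cells of the knockout-labelled library and at 118 (106 to 131) in those of the control library, so its level did not separate the libraries. The 3' tags may lie outside the deleted stretch, in which case they check nothing, so the knockout rests on the label. The embryos were of opposite sex: Xist had 9152 UMIs in Isl1-positive cells of the knockout-labelled library and 0 in those of the control library, and the Y-linked Ddx3y had 0 and 204.

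The cells carried the markers in their name, with low sums for the markers of other cell types except smooth muscle and mural cells. Col3a1, a fibrillar collagen, stood at 504 CPM in Isl1-positive cells and 445 in Isl1-zero cells of the knockout-labelled library, and at 549 and 535 in the control library. Markers of endocrine cells, the other Isl1-bearing cells of the pancreas, were low: the 4 genes Chga, Chgb, Neurod1 and Pax6 summed to 2.41 CPM in Isl1-positive and 2.67 in Isl1-zero cells of the knockout-labelled library, and to 12.2 and 18.7 in the control library. Over all gate cells there were 18.9 Isl1 UMIs per endocrine-marker UMI in the knockout-labelled library and 2.39 in the control library, against 0.0378 and 0.0606 in epithelial cells with endocrine markers. Immune markers summed to 0.804 CPM in Isl1-positive against 1.53 in Isl1-zero cells of the knockout-labelled library and 39.9 against 29.3 in the control library. Behind the control values were 121 and 345 UMIs, and 1 Isl1-positive and 6 Isl1-zero cells had 2 or more such UMIs. The 5 smooth muscle and mural markers Acta2, Tagln, Cnn1, Rgs5 and Cspg4 summed to 203 CPM in Isl1-positive against 210 in Isl1-zero cells of the knockout-labelled library and to 246 against 203 in the control library, and 181 of the 452 and 149 of the 414 Isl1-positive cells had 2 or more such UMIs. Epithelial and mesothelial markers were higher in Isl1-positive cells. Epcam, Cdh1, Krt8 and Krt18 summed to 23.8 CPM in Isl1-positive against 14.5 in Isl1-zero cells of the knockout-labelled library and to 32.9 against 19.4 in the control library. Upk3b, Lrrn4, Msln and Upk1b summed to 15.0 CPM in Isl1-positive against 4.20 in Isl1-zero cells of the knockout-labelled library, and to 11.2 against 3.48 in the control library.

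Isl1 was detected in a smaller share of gate cells than of mesothelium or endocrine epithelium, and in a larger share than of the remaining epithelium. To compare classes of different depth, each cell was thinned to 3000 UMIs at random and shallower cells were left out. Of gate cells, 12.3% then carried an Isl1 UMI in the knockout-labelled library (interval 10.8 to 13.9) and 10.2% in the control library (8.96 to 11.5). Mesothelium, gated by Upk3b and Lrrn4, had 38.4% and 39.6%, and Lum-rich cells that otherwise met the gate had 23.9% and 16.1%. Epithelial cells with 5 or more UMIs of Chga and Chgb had 50.0% of 26 cells and 63.0% of 81 cells.

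**Figure D1:**
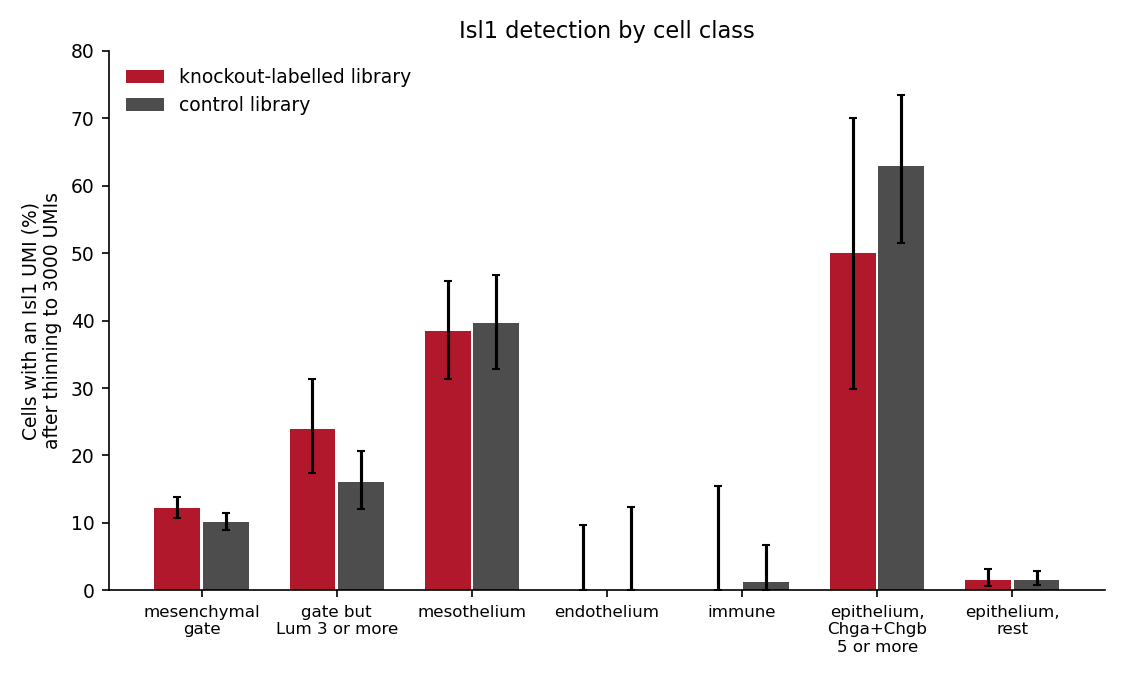
Share of cells with an Isl1 UMI after thinning each cell to 3000 UMIs, in percent, by cell class, in the knockout-labelled (red) and control (grey) libraries; whiskers are exact binomial 95% intervals and cover counting error alone. The mesenchymal gate, at 12.3% and 10.2%, lies between mesothelium at 38.4% and 39.6% and the remaining epithelium at 1.56% in each library.

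The remaining epithelium had an Isl1 UMI in 1.56% of thinned cells in each library. Its unthinned share was 5.79% in the knockout-labelled library at a median of 15138 UMIs and 3.88% in the control library at 13874, against 24.7% of gate cells at a median of 7320 UMIs and 18.6% at 6075. This class was not free of Isl1-expressing cells: its 26 and 25 unthinned cells with an Isl1 UMI held 110 and 140 Isl1 UMIs, more per cell than in the gate, where 452 and 414 cells held 701 and 617. Immune cells, a class that should lack Isl1, had an Isl1 UMI in 0 of 22 thinned cells of the knockout-labelled library at a median of 10914 UMIs, which allows up to 13.6%, and in 1 of 81 (1.23%) in the control library at 8701. Endothelium, another such class, had 0 of 36 and 0 of 28 thinned cells with an Isl1 UMI at medians of 11160 and 9330 UMIs, which allows a share of cells with a UMI of up to 8.33% and 10.7%. The thinned gate share lay above the limit for endothelium in the knockout-labelled library and above the immune share in the control library. It lay below the immune limit in the knockout-labelled library and below the endothelial limit in the control library, where few cells set the limit.

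The Isl1-positive share was larger in the knockout-labelled library. It was 24.7% of 1827 gate cells there (exact binomial interval 22.8 to 26.8) and 18.6% of 2225 in the control library (17.0 to 20.3), a ratio of 1.33 (1.18 to 1.496). Gate cells of the knockout-labelled library also held more UMIs, and after thinning the ratio was 1.20 (1.01 to 1.43). With 1 embryo per condition, condition, embryo and sex cannot be told apart.

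Most members carried a single Isl1 UMI. In the knockout-labelled library 291 of the 452 cells had 1 UMI, 109 had 2 and 52 had 3 or more, up to 8. In the control library 291 of 414 had 1, 93 had 2 and 30 had 3 or more, and 1 cell with 36 UMIs held 5.83% of the class's Isl1 UMIs. Isl1 stood at 188 CPM (174 to 202) and 203 (188 to 220), a level the rule sets in part. Cells just inside the collagen threshold, with 3 UMIs, numbered 30 in the knockout-labelled and 36 in the control library, and 31 and 16 cells lay just outside it with 2. At the Lum threshold 29 and 38 cells lay just inside with 2 UMIs, and 23 and 28 just outside with 3. At the mesothelial threshold 25 and 17 cells lay just inside with 1 UMI, and 27 and 17 just outside with 2.

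Split at 1 Isl1 UMI, Isl1-positive cells differed from Isl1-zero cells past 1.5-fold in few genes, led by Stmn2, Cav1 and Slc9a3r1. Of 5145 genes with a mean of at least 20 CPM over the 4 sums, 31 were at least 1.5-fold higher in Isl1-positive cells in both libraries (0.603%) and 8 were at least 1.5-fold lower in both (0.155%), while 62.2% differed in the same direction in both at any size. Ratios are log2 of CPM plus 5, and the median over all tested genes was 0.02 in each library. With 1 library per condition these are folds past a size and not tests. The count depends on the split: with at least 2 Isl1 UMIs required, 94 genes were higher and 30 lower. Thinning lowered the share of gate cells with an Isl1 UMI from 24.7% to 12.3% and from 18.6% to 10.2%. Isl1-zero cells can therefore include cells whose Isl1 RNA was not captured. The 12 highest ranged from 0.87 to 2.27 in the knockout-labelled library and from 0.85 to 1.88 in the control library.

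Stmn2 led the genes that were higher. It encodes stathmin 2, a regulator of microtubules best known from neurons, and lies on chromosome 3 of GRCm38 (8509360 to 8561606, plus strand). It stood at 161 CPM (148 to 174) in Isl1-positive and 30.1 (26.8 to 33.6) in Isl1-zero cells of the knockout-labelled library (log2 ratio 2.24), and at 67.9 (58.9 to 77.8) and 14.8 (12.7 to 17.2) in the control library (1.88). In the control library 3 cells held 35.4% of the Stmn2 UMIs of Isl1-positive cells. Stmn2 was not particular to the members: Lum-rich cells that otherwise met the gate had 291 CPM in the knockout-labelled library and 123 in the control library. Few cells carried the transcript: 77 of the 452 Isl1-positive cells and 72 of the 1375 Isl1-zero cells had a Stmn2 UMI in the knockout-labelled library, and 37 of 414 and 49 of 1811 in the control library. The pan-neuronal genes Elavl3 and Tubb3 were at 0 and 0.536 CPM in Isl1-positive cells of the knockout-labelled library and at 0.988 CPM each in the control library. They are the lower part of a set of 4 neuron markers. The 4 summed to 5.36 CPM in Isl1-positive against 5.44 in Isl1-zero cells of the knockout-labelled library, and to 6.92 against 9.67 in the control library.

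Igfbp5, a binding protein of insulin-like growth factors, stood at 243 CPM in Isl1-positive and 71.8 in Isl1-zero cells of the knockout-labelled library and at 149.9 and 58.3 in the control library (log2 ratios 1.69 and 1.29). Cxcl13, a chemokine that attracts B cells, stood at 49.0 CPM in Isl1-positive and 6.20 in Isl1-zero cells of the knockout-labelled library and at 28.3 and 10.2 in the control library (2.27 and 1.14). Nrp2, a co-receptor for semaphorins and VEGF, had ratios of 1.87 and 0.99. Cav1, the coat protein of caveolae, stood at 43.1 CPM in Isl1-positive and 7.83 in Isl1-zero cells of the knockout-labelled library and at 32.3 and 5.51 in the control library (1.91 and 1.83). Slc9a3r1, a scaffold under the apical membrane of epithelia, had ratios of 1.29 and 1.80. Lum-rich cells had more Cxcl13 than the members, at 133 CPM in the knockout-labelled and 73.8 in the control library. Nrp2 stood at 77.2 and 36.7 CPM in Lum-rich cells, against 43.4 and 26.7 in members. Igfbp5, Cav1 and Slc9a3r1 were lower in Lum-rich cells than in members in both libraries. For each of these genes the 95% intervals of Isl1-positive and Isl1-zero cells did not overlap, which is a description, as the genes were ranked by the same ratios. The intervals take no account of the spread between cells. Among Isl1-positive control cells, the top 3 cells for each of these genes held 15.9% (Slc9a3r1) to 28.6% (Cav1) of its UMIs.

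Transcription factor genes followed. Barx1, a homeobox gene of stomach mesenchyme (chromosome 13, 48662998 to 48666507), stood at 34.0 CPM in Isl1-positive and 16.4 in Isl1-zero cells of the knockout-labelled library and at 31.6 and 15.3 in the control library (0.87 and 0.85). Nr2f1, an orphan nuclear receptor, had ratios of 1.10 and 1.01, and Zfhx4, a zinc finger homeobox gene, 1.03 and 1.01. The Isl1 gene is on chromosome 13 too (116298281 to 116309689, minus strand).

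Apoe, the apolipoprotein of lipid transport, had ratios of 1.12 and 1.19, but its control value rested on 1 cell. That cell held 285 of the 459 Apoe UMIs in Isl1-positive control cells, and in the knockout-labelled library no cell held more than 7 of 181. After thinning, the control ratio of Apoe was -0.15.

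Genes that were lower in Isl1-positive cells were fewer. Kazald1, a secreted protein related to the insulin-like growth factor binding proteins, stood at 22.5 CPM in Isl1-positive and 54.8 in Isl1-zero cells of the knockout-labelled library and at 21.7 and 48.0 in the control library (-1.12 and -0.99). Gap43, a protein of growing axons, stood at 283 CPM in Isl1-positive and 433 in Isl1-zero cells of the knockout-labelled library and at 238 and 390 in the control library (-0.61 and -0.70). Rgcc, a cell cycle regulator, had ratios of -0.84 and -0.99. Another 4 of the 8 were haemoglobin genes, such as Hbb-bs at 214 CPM in Isl1-positive against 675 in Isl1-zero cells of the knockout-labelled library and 82.0 against 482 in the control library. A single Isl1-zero cell held 69.95% of the Hbb-bs UMIs of Isl1-zero cells in the knockout-labelled library, and another held 83.3% in the control library. No Isl1-positive cell had 50 or more haemoglobin UMIs.

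**Figure D2:**
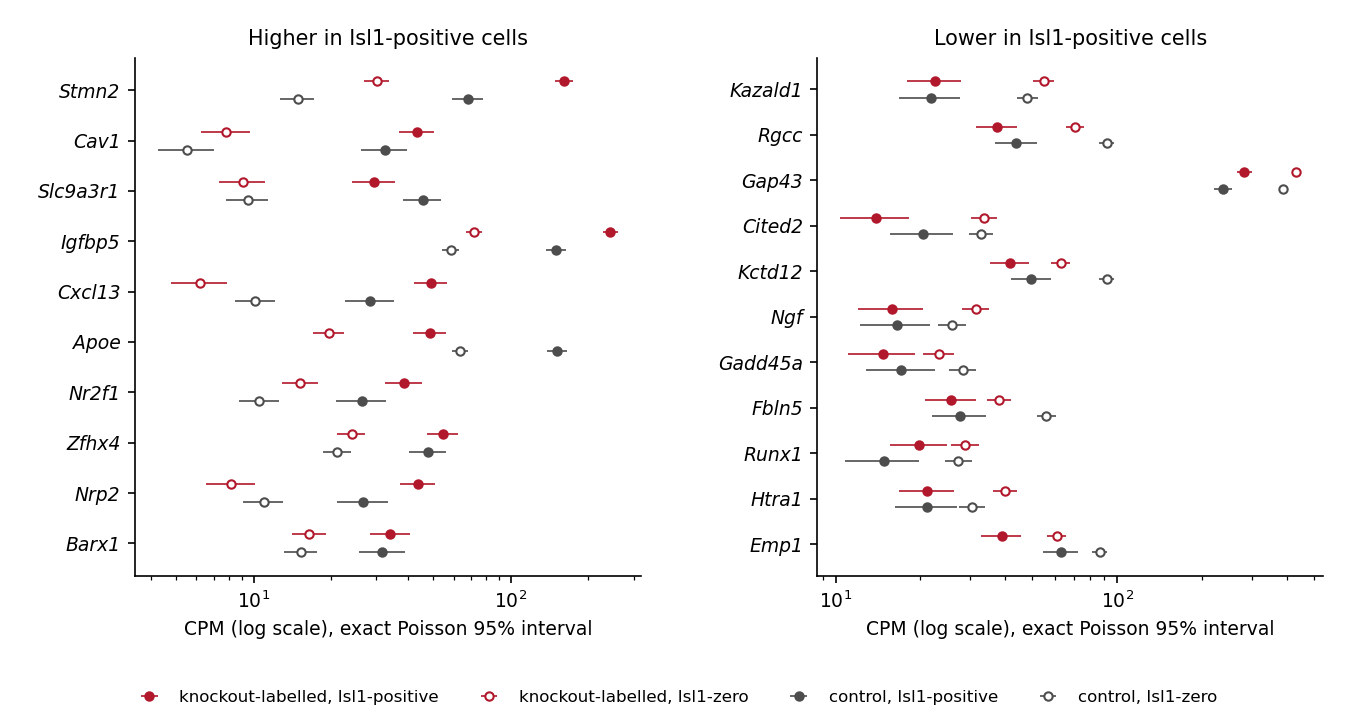
Levels of 10 of the 12 genes highest (left) and 11 of the 12 lowest (right, haemoglobin genes left out) in Isl1-positive cells by the smaller of the 2 log2 ratios, in CPM on a log axis; filled points are Isl1-positive cells and open points Isl1-zero cells, red for the knockout-labelled and grey for the control library, with exact Poisson 95% intervals. Every filled point lies right of its open point in the left panel, and left of it in the right panel.

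Members were spread over all 13 clusters of the gate. The 4052 gate cells were clustered without Isl1 and the genes of the rule, and the Isl1-positive share of thinned cells ran from 3.95% to 40.4% over these clusters. It was highest in cluster 13, led by Cav1, Slc9a3r1, Krt19 and Ezr (40.4%, interval 32.6 to 48.5), then in cluster 10, led by Barx1, Adrb3 and Meox1 (23.7%, 18.5 to 29.5), and in cluster 8, with Stmn2 and Cxcl13 among its leading genes (16.0%, 12.96 to 19.3). The other 10 clusters had 3.95% to 12.1%. The order of these 3 held in both libraries: 43.4% and 35.1% in cluster 13, 28.4% and 21.6% in cluster 10, and 16.0% and 15.9% in cluster 8. Within each library the intervals of clusters 13 and 10, and of clusters 10 and 8, overlap. Together they held 189 of the 452 members of the knockout-labelled library and 157 of the 414 of the control library, and the other 263 and 257 members lay elsewhere. Chgb, 1 of the endocrine markers, was also among the leading genes of cluster 8. The clusters were left without cell type names.

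**Figure D3:**
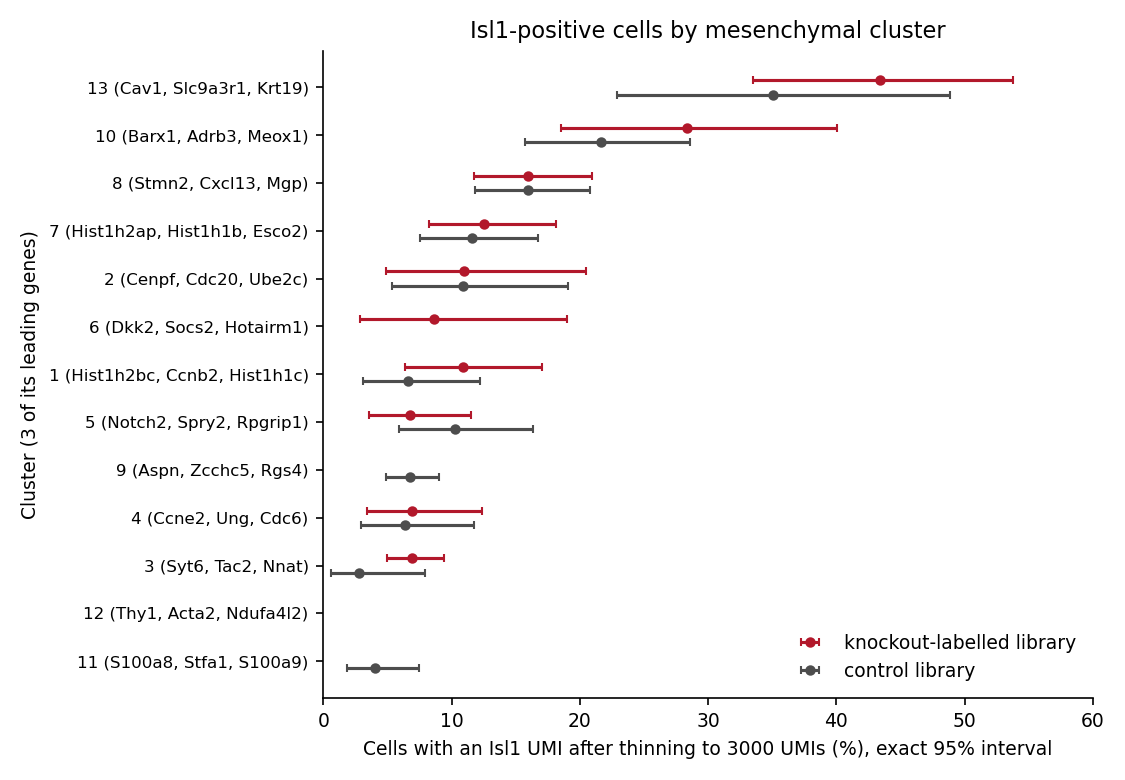
Share of thinned cells with an Isl1 UMI in each mesenchymal cluster, in percent, with exact binomial 95% intervals, for the knockout-labelled (red) and control (grey) libraries where a cluster held at least 50 thinned cells of that library; clusters are named by number and 3 of their leading genes. Cluster 13 is highest in both libraries, at 43.4% and 35.1%, followed by cluster 10 and cluster 8.

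Members in cluster 13 had levels near those of mesothelium in several genes. Cav1 stood at 262 CPM in the 70 members there and 366 in mesothelium of the knockout-labelled library, and at 341 in 36 members and 375 in mesothelium of the control library, while members outside clusters 8, 10 and 13 had 2.98 and 1.47. Igfbp5 stood at 1003 CPM in these members against 967 in mesothelium of the knockout-labelled library and at 832 against 829 in the control library. Nr2f1 stood at 155 against 196 CPM in the knockout-labelled and 193 against 119 in the control library. The defining marker Upk3b was at 24.0 and 14.5 CPM in these members, against 352 and 439 in mesothelium, as the rule allows at most 1 UMI. Their Isl1 level was 293 and 298 CPM, against 172 and 173 in mesothelium.

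Stmn2 was above its mesothelial level in cluster 13 of the knockout-labelled library alone. In cluster 13 it stood at 431 CPM (378 to 490) in members and 107 (68.8 to 160) in Isl1-zero cells of the knockout-labelled library, and at 43.6 in members and 39.6 in Isl1-zero cells of the control library. Mesothelium had 43.6 and 39.5 CPM. In cluster 8 Stmn2 was higher in members in both libraries, at 504 CPM in members against 191 in Isl1-zero cells of the knockout-labelled library and 275 against 79.6 in the control library, and so was Cxcl13, at 129 against 32.7 in the knockout-labelled and 98.8 against 59.1 in the control library, where the control intervals overlap by a small margin.

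Barx1 led cluster 10 and was present at a like level in cluster 13 of the control library, with 65.4 CPM in members there. In cluster 10 it stood at 135.1 CPM in members and 115 in Isl1-zero cells of the knockout-labelled library, and at 60.3 and 71.8 in the control library, with members above Isl1-zero cells in the knockout-labelled library and below them in the control library, and overlapping intervals in both. Stmn2 was at 0 and 16.1 CPM and Cav1 at 0 UMIs in members of cluster 10.

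Weighting Isl1-zero cells to the cluster shares of the members, an alternative chosen after the clusters were seen, left few of the higher genes past the fold. Of the 8 lower genes 5 stayed at least 1.5-fold lower in both libraries. However, 4 of the 8 were haemoglobin genes, for which 1 Isl1-zero cell in each library held 69.95% to 89.4% of the UMIs of its class. Of the 31 higher genes 3 stayed at least 1.5-fold higher in both libraries, among them Stmn2 at 1.53 and 1.43. Cav1 was then at -0.085 and -0.063, and 10 of the 12 named genes no longer passed the fold in both libraries. Leaving out cluster 13 kept 20 of the 31 and lost Cav1, Slc9a3r1, Nr2f1 and Zfhx4 of the 12 named. The compared genes were not left out of the clustering. Cav1, Slc9a3r1, Stmn2, Cxcl13 and Barx1 are themselves among the leading genes of clusters 13, 8 and 10. Weighting by cluster, or leaving out cluster 13, can thus shrink the differences in such genes by construction. Leaving out every gate cell with a UMI of a mesothelial marker or of Krt19 or Krt7 kept 18 of the 31. It lost Cav1, Slc9a3r1, Apoe, Nr2f1 and Barx1 of the 12 named. UMIs of these mesothelial and keratin genes were found in 11.9% of members and 5.09% of Isl1-zero cells in the knockout-labelled library and in 12.1% and 5.58% in the control library.

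Within the members, Cxcl13 and Nrp2 were found more often in cells with Stmn2. Among thinned members of the knockout-labelled library, 20 of 60 with a Stmn2 UMI also had Cxcl13 (33.3%, 21.7 to 46.7), against 20 of 389 without one (5.14%, 3.17 to 7.83). In the control library the counts were 5 of 26 (19.2%, 6.55 to 39.4) and 18 of 383 (4.70%, 2.81 to 7.33), where the intervals overlap. Nrp2 was found in 28.3% with Stmn2 against 4.88% without in the knockout-labelled library and in 11.5% against 3.66% in the control library, again with overlap in the control library. Barx1 went the other way, at 6.67% of members with Stmn2 against 11.8% without in the knockout-labelled library and 7.69% against 12.3% in the control library, though these intervals overlap.

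For the named genes, most differences were larger in cells with more Isl1 UMIs. In the knockout-labelled library Stmn2 stood at 30.1 CPM with 0 Isl1 UMIs, 79.7 with 1 and 298 with 2 or more, and in the control library at 14.8, 47.6 and 112. Gap43 ran the other way, at 433, 329.6 and 203 CPM and at 390, 263 and 185. All 12 higher genes were further from Isl1-zero cells at 2 or more UMIs than at 1 in the knockout-labelled library, and 10 of 12 in the control library. Of the 12 lower genes, 10 and 8 were further at 2 or more. These genes were ranked in the same cells, and the count over all tested genes was not taken, so the counts are descriptions. The control 10 include Apoe, at 63.3 CPM with 0 Isl1 UMIs, 42.3 with 1 and 388 with 2 or more, where 1 cell held 285 Apoe UMIs. Depth moved in the same direction, with medians of 7225, 7613 and 8032 UMIs and of 6003, 6417 and 6606. Isl1 counts also differed by cluster. The 70 and 36 members in cluster 13 held 159 and 82 Isl1 UMIs, and the 263 and 257 members outside clusters 8, 10 and 13 held 371 and 329. The parts of depth and of cluster in the gradient were not tested. With zero cells weighted to the depth of the members, 28 of the 31 higher genes stayed past the fold in both libraries.

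**Figure D4:**
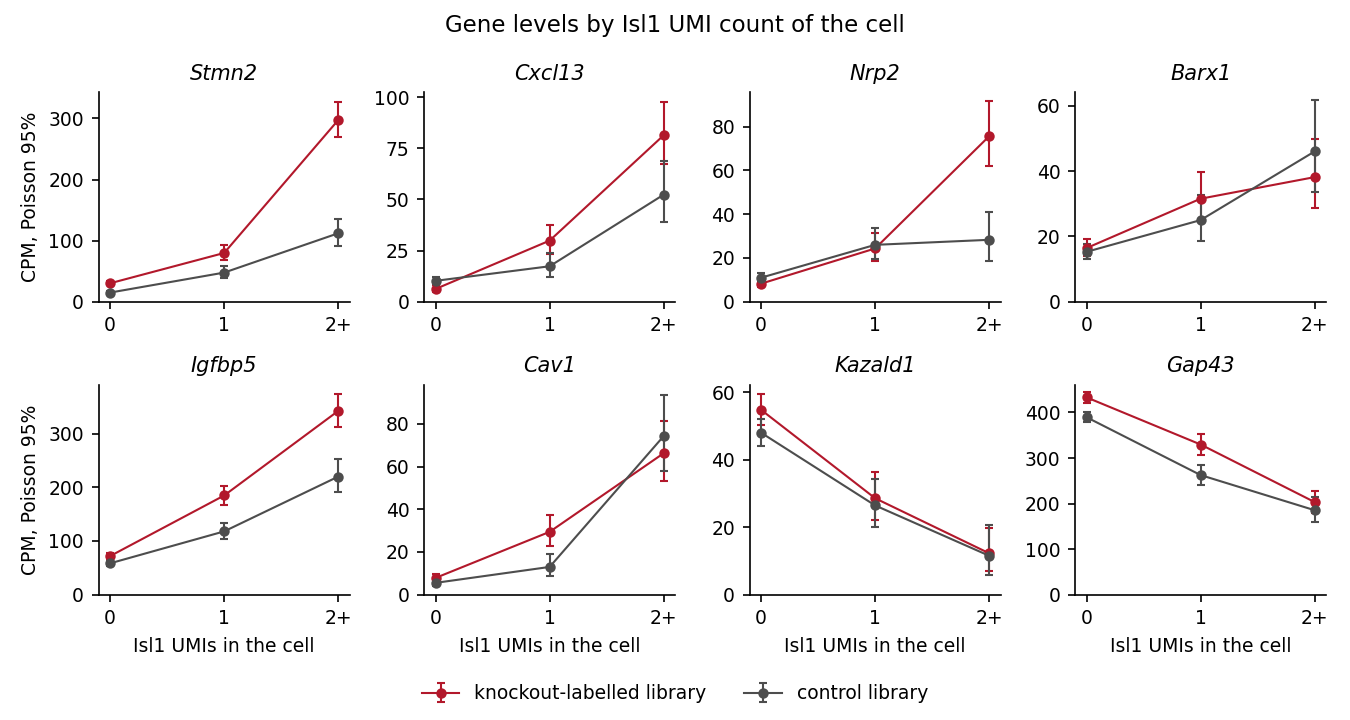
Levels of 8 genes in CPM (linear axes) in gate cells with 0, 1 and 2 or more Isl1 UMIs, in the knockout-labelled (red) and control (grey) libraries, with exact Poisson 95% intervals. Stmn2 reaches 298 and 112 CPM and Gap43 drops to 203 and 185 CPM at 2 or more Isl1 UMIs.

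Groups of genes with known roles in pancreatic mesenchyme mostly differed little. Of 18 tested transcription factors of splanchnic and pancreatic mesenchyme, 12 were higher in Isl1-positive cells in both libraries, 4 lower and 2 mixed, against 36.8% and 25.4% of all tested genes, and 2 passed the fold, Barx1 and Nr2f1, where 0.603% of all tested genes were past it upward. Their median was 0.15 and 0.08. With gate cells carrying a UMI of a mesothelial marker, Krt19 or Krt7 left out, Barx1 and Nr2f1 no longer passed the fold in the control library. Barx1 was then at 0.69 in the knockout-labelled and 0.56 in the control library, and Nr2f1 at 0.80 and 0.12. Mesothelium itself had Barx1 at 70.6 and 64.4 CPM. Tcf21, a factor of visceral mesenchyme, stood at 58.1 CPM in Isl1-positive against 41.1 in Isl1-zero cells of the knockout-labelled library and 48.8 against 33.5 in the control library, and Nkx2-3, a factor of gut and spleen mesenchyme, at 18.2 against 32.9 CPM in the knockout-labelled and 13.5 against 19.2 in the control library. Gata6, a zinc finger factor, did not reach the minimum and stood at 29.2 against 12.3 CPM in the knockout-labelled and 14.2 against 7.72 in the control library. None of the 6 tested LIM homeobox genes and LIM domain partners passed the fold, and Ldb1, a cofactor of LIM homeodomain proteins, stood at 31.9 against 29.97 CPM in the knockout-labelled and 28.3 against 31.7 in the control library.

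Over all tested genes, 36.8% were higher in both libraries, 25.4% lower and 0.603% past the fold upward. Of the 9 tested signals to the epithelium, 5 were higher, 4 lower and 1 passed the fold. This was Cxcl12, the ligand of Cxcr4, at 257 CPM in Isl1-positive against 142 in Isl1-zero cells of the knockout-labelled library and 244 against 155 in the control library (0.84 and 0.64). Igf1, insulin-like growth factor 1, stood at 336 against 153 CPM in the knockout-labelled library (1.11) and at 268 against 204 in the control library (0.39), below the fold. Fgf10, the main growth factor for the pancreatic epithelium, was low at 4.82 against 2.86 CPM in the knockout-labelled and 2.64 against 2.80 in the control library. Of 13 response genes of hedgehog, Wnt, retinoic acid and BMP signalling, 8 were higher, 3 lower and 0 passed the fold. Id2, a BMP response gene, stood at 226 against 114 CPM in the knockout-labelled and 226 against 162 in the control library.

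For the counts that follow, 36.8% of all tested genes were higher in both libraries and 25.4% lower. Among 28 tested matrix genes 10 were higher, 10 lower and 3 passed the fold upward, against 0.603% of all tested genes, with medians of 0.02 and -0.00. The 3 were the proteoglycan gene Dcn at 199.6 CPM in Isl1-positive against 88.6 in Isl1-zero cells of the knockout-labelled library and 255 against 163 in the control library, the fibril-associated collagen Col14a1 at 85.2 against 30.4 CPM in the knockout-labelled and 59.6 against 36.9 in the control library, and Fbln2, a fibulin, at 33.8 against 18.9 CPM in the knockout-labelled and 33.6 against 18.1 in the control library. Of 9 smooth muscle and mural genes, 5 were higher, 4 lower and 2 passed the fold upward: Myl9, a myosin light chain, at 108 against 59.7 CPM in the knockout-labelled and 133 against 79.6 in the control library, and Kcnj8, a potassium channel of mural cells, at 106 against 61.4 CPM in the knockout-labelled and 126 against 75.7 in the control library. The PDGF receptor genes were lower without passing the fold, Pdgfrb at 62.4 against 77.9 CPM in the knockout-labelled and 121 against 158 in the control library and Pdgfra at 46.9 against 67.3 CPM in the knockout-labelled and 46.8 against 61.9 in the control library. No COMPASS subunit of 9 tested passed the fold, nor did any of 17 immediate early genes, of which 9 were higher and 2 lower. No gene of the endocrine list or of the glial list reached the minimum of 20 CPM. Of the neuron list 3 did, with Stmn2 past the fold upward and Gap43 downward. From the epithelial, immune, endothelial and mesothelial lists 1, 1, 2 and 2 genes were tested and 0 passed the fold.

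Cell division genes were higher in Isl1-positive cells as a group. All 30 tested genes of G2 and mitosis were higher in both libraries, against 36.8% of all tested genes. Their median was 0.32 in the knockout-labelled library and 0.68 in the control library, against 0.02 over all tested genes. Of the 30, 1 passed the fold in both, the mitotic kinase gene Aurka, against 0.603% of all tested genes. Ube2c, an enzyme of mitotic exit, stood at 257 CPM in Isl1-positive against 193 in Isl1-zero cells of the knockout-labelled library and 336 against 181 in the control library, and Cenpf, a kinetochore protein, at 189 against 139.9 CPM in the knockout-labelled and 245 against 121 in the control library. Genes of S phase differed less, with 14 of 27 higher and 3 lower, against 36.8% and 25.4% of all tested genes, and medians of 0.07 and 0.06. Cells with 5 or more UMIs of 6 mitotic genes made up 18.5% of thinned Isl1-positive cells against 14.8% of thinned Isl1-zero cells in the knockout-labelled library, with overlapping intervals. The control library had 21.0% against 12.3%, without overlap. The Isl1 class was taken before thinning, so it still went with depth, and the part of depth was not tested. Cluster 2, led by Cenpf, and cluster 7, with Top2a among its leading genes, had medians of 10703 and 9485.5 UMIs. Their thinned Isl1-positive shares were 10.9% and 12.1%, and cluster 1, with Ccnb2 among its leading genes, had 8.83% at 6007 UMIs. With cells of 5 or more mitotic UMIs left out, 25 of the 31 higher genes stayed past the fold. Cells with the highest doublet scores made up 2.65% of Isl1-positive (1.38 to 4.59) and 1.82% of Isl1-zero cells (1.18 to 2.67) in the knockout-labelled library. The control library had 3.62% (2.04 to 5.91) and 2.32% (1.68 to 3.12), so the intervals of the 2 classes overlapped in both libraries. Without these cells 28 of the 31 higher genes stayed.

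Between the libraries, most genes past the fold in Isl1-positive cells differed in the same direction in Isl1-zero cells. Among 5218 tested genes, 57 were at least 1.5-fold higher in the knockout-labelled library (1.09%) and 61 at least 1.5-fold lower (1.17%), with a median log2 ratio of -0.02; at any size 45% were higher and 55% lower. Of these 118 genes, 108 had the same sign in Isl1-zero cells and 56 were also past the fold there. Of all 5218 tested genes, 883 were lower in Isl1-positive and higher in Isl1-zero cells, and 781 the other way. Among the 8 highest and 8 lowest, 7 and 8 had the same sign in Isl1-zero cells. The libraries were unevenly spread over the clusters: cluster 3, with Syt6 and Tac2 among its leading genes, held 79 members of the knockout-labelled library and 9 of the control library, and cluster 9, led by Aspn, held 3 and 77. The part of this spread in the differences between libraries was not tested. Of 29 tested matrix genes 20 were lower, 5 of them past the fold, such as Col6a1 at 71.3 against 139 CPM, while of 10 COMPASS subunits 5 were higher, 5 lower and 0 past the fold.

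Hes1, the Notch target repressor, stood at 586 CPM (561 to 611) in Isl1-positive cells of the knockout-labelled library and 1277 (1237 to 1318) in those of the control library, a log2 ratio of -1.12, against -1.04 in Isl1-zero cells. Nr4a1, an immediate early nuclear receptor, stood at 42.6 and 106 CPM (-1.22 and -1.04 in the same order of classes), and Ebf1, a helix-loop-helix factor of mesenchymal cells, at 59.7 and 124 (-0.997 and -0.936). Adamts5, a protease of proteoglycans, stood at 13.4 and 38.9 CPM (-1.25 and -0.55). The X-linked Mid1 had the lowest ratio at -2.11, against -2.42 in Isl1-zero cells, and the embryos differed in sex. Apoe followed at -1.55, which thinning turned to 0.21.

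Stmn2 was high in both contrasts, by Isl1 class and by library. In Isl1-positive cells Stmn2 stood at 161 CPM in the knockout-labelled and 67.9 in the control library, or 1.19 on the log2 scale, against 0.82 in Isl1-zero cells. Palld, an actin-bundling protein, had 1.13 against 0.86, and the translation factor gene Eif3f 0.92 against 0.92. Cluster 13 held 15.5% of members in the knockout-labelled library and 8.70% in the control library, and without its cells the log2 ratio between libraries in Isl1-positive cells was 0.67 for Stmn2.

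Some genes differed between libraries in opposite directions in the 2 classes. Cxcl13 had a log2 ratio of 0.70 in Isl1-positive cells and -0.44 in Isl1-zero cells, Plac8 0.69 and -0.35, and Mgp, an inhibitor of calcification, 0.63 and -0.31. Nrxn3, a synaptic adhesion gene, had 1.01 and -0.06. The mitotic genes Prc1, Kif23 and Aspm had -0.43, -0.48 and -0.49 in Isl1-positive and 0.33, 0.27 and 0.24 in Isl1-zero cells. Of the 31 tested genes of G2 and mitosis, 24 were lower in the knockout-labelled library in Isl1-positive cells and higher in Isl1-zero cells, with medians of -0.22 and 0.16, against 16.9% of all tested genes and all-gene medians of -0.02 and -0.01. No test of these differences was possible with 1 library per condition.

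**Figure D5:**
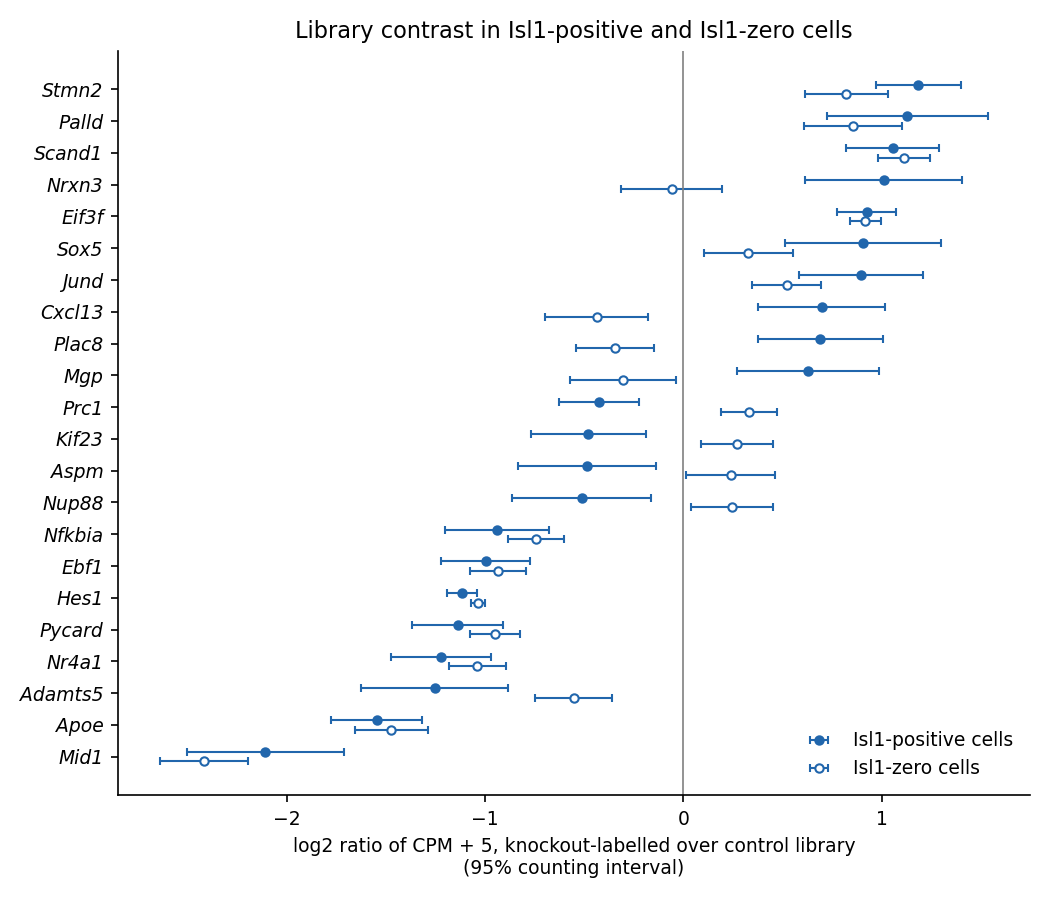
Log2 ratio of CPM + 5, knockout-labelled over control library, for genes at the extremes of this contrast, in Isl1-positive (filled) and Isl1-zero (open) cells, with 95% counting intervals. Most genes have the same sign in both classes, such as Hes1 at -1.12 and -1.04, while Cxcl13, Plac8 and Mgp lie above 0 in Isl1-positive cells and below 0 in Isl1-zero cells, and Prc1, Kif23, Aspm and Nup88 the other way round.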

How the data were processed

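UMI counts for every gene in every barcode are the deposited values. Per the submitters' processing notes they came from Cell Ranger with GRCm38 (mm10); Seurat 2 and 3 are listed as well, with nothing said of their use. Neither the Cell Ranger version nor the annotation release is stated in what was used. Per the labels' protocols the chemistry was 10x Chromium 3' v2. The authors' deposited table of epithelial clusters was not used. The members and the 18 gene lists were chosen with earlier results of these data known.

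Counts were summed per library and Isl1 class and divided by the class total (CPM). Log2 ratios used a pseudocount of 5 CPM, and genes needed a mean of 20 CPM and 20 UMIs. A gene was called past 1.5-fold, in both libraries for the Isl1 contrast. CPM intervals are exact Poisson, shares exact Clopper-Pearson, ratios delta-method or log-normal, all at 95%; a count of 0 has a floor of 3 counts. Named genes were the 12 highest and 12 lowest of the Isl1 contrast by the ratio nearer 0 with the same sign in both libraries, the 8 highest and 8 lowest of the library contrast, and the 4 highest and 4 lowest by its difference between classes, without ribosomal protein, mitochondrial, haemoglobin and sex-marker genes and unnamed gene models; list members and Dpy30 may be named too. Some of these genes are not reported here, though counts include them. Other genes were named after their values were seen. Clustering used scanpy 1.11.5 (2000 variable genes, 30 components, 15 neighbours, Leiden resolution 1.0, seed 0), without Isl1 and the genes of the rule. Doublets were scored from simulated pairs (2 per cell), and cells at the top 0.8% per 1000 barcodes were left in, with their removal as an alternative. Scaling alternatives used edgeR 4.0.16 (TMM). The code was tested on simulated counts with 200 changed genes. Gene positions are GENCODE annotation of GRCm38.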

Additional observations from a re-analysis of the deposited data

Results flagged for a closer look

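For 8 of the genes named by rank, the knockout-labelled library lay on opposite sides of the control library in Isl1-positive and Isl1-zero cells. For these genes neither counting interval included equal levels, and the differences were not tested. Opposite signs alone were common: of all 5218 tested genes, 883 were lower in Isl1-positive and higher in Isl1-zero cells, and 781 the other way. Cxcl13 had a log2 ratio of 0.70 in Isl1-positive cells and -0.44 in Isl1-zero cells, Nrp2 0.61 and -0.27, Plac8 0.69 and -0.35, and Mgp 0.63 and -0.31. In the other direction Nup88, a nuclear pore subunit, had -0.51 and 0.25, Prc1 -0.43 and 0.33, Kif23 -0.48 and 0.27, and Aspm -0.49 and 0.24. Cxcl13 and Mgp are among the leading genes of cluster 8, which held 84 of 452 members in the knockout-labelled library and 70 of 414 in the control library. In the control library 1 cell held 17 of the 64 Mgp UMIs of Isl1-positive cells.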

How the results depend on the processing

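Requiring 2 Isl1 UMIs gave shares of 8.81% and 5.53% (ratio 1.59), 94 genes higher and 30 lower in Isl1-positive cells, and 156 higher and 226 lower in the knockout-labelled library. Thinning to 3000 UMIs gave shares of 12.3% and 10.2%, 13 genes lower in Isl1-positive cells, and 293 and 331 between libraries, with fewer UMIs behind each gene; it reversed Apoe to -0.15 in the control library and 0.21 between libraries, and the cause was not tested. Without mitotic cells the control share was 16.7%, and without cluster 13 the knockout-labelled share was 22.1%. The Isl1 contrast gave 17 higher genes with a pseudocount of 20, 11 with a minimum of 50 CPM, 92 with none and 3 higher and 5 lower with cluster weighting, 4 lower without a limit on Lum, and, with either library left out, 46 to 94 higher and 17 to 18 lower. The library contrast gave 94 higher and 109 lower without ribosomal, mitochondrial and haemoglobin genes, 24 and 21 with a pseudocount of 20, 19 and 22 with a minimum of 50 CPM, and 193 and 253 with none. Cav1 in the control library turned to -0.058 without cluster 13 and -0.041 without cells with mesothelial UMIs, where Apoe was -0.69; cluster weighting turned Cav1 to -0.085 and -0.063, Slc9a3r1 in the knockout-labelled library to -0.35 and Igfbp5 in the control library to -0.11. The cluster alternatives and the one on mesothelial UMIs were chosen after seeing the data, and the compared genes were not left out of the clustering. Across clusterings the top share was 38.4% to 40.4%, in a cluster led by Cav1 except with seed 1, where S100a8, Stfa1 and S100a9, leading genes of cluster 11, led it ahead of Cav1. No paired analysis was possible because each condition is 1 library. UMI counts per gene limit the precision of every ratio.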
